A study of Homo sapiens with 33 samples.

Results

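The genes of the integrin and laminin families were examined in malignant pleural mesothelioma (MPM) cell lines given the CDK4/6 inhibitor palbociclib. Members were taken by symbol from the deposited expression matrix, as integrin alpha genes (ITGA), integrin beta genes (ITGB) and laminin alpha, beta or gamma genes (LAMA, LAMB, LAMC). The members described are 37 of 58302 genes, of which 26 encode integrin chains (18 alpha, 8 beta) and 11 encode laminin chains. The series holds 33 RNA-seq libraries of 6 established human lines: H2052, H2452, H28 and MSTO-211H, classed as sensitive to palbociclib, and MPP89 and MeT-5A, classed as resistant. Each line was cultured with 1 µM palbociclib or with 0.1% DMSO, and a palbociclib and a DMSO library of 1 experiment form a pair. The 11 sensitive pairs were 3 from each sensitive line except H2052, which had 2. Of these, 7 pairs lasted 9 days and 4 lasted 10 days. The 3 resistant pairs, 2 of MPP89 and 1 of MeT-5A, all lasted 9 days. In each sensitive line, the 10-day experiment also had a library from cells kept for 48 h in drug-free medium after palbociclib, and MeT-5A had 1 library of untreated cells. MeT-5A is a mesothelial line immortalized with SV40, and MPP89 was included by the study for its mutated RB1. Washout was done once per line, and the experiments of a line share that line's genome.

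Integrins are cell surface receptors made of an alpha and a beta chain, and the pair of chains decides which extracellular protein is bound. Laminins are cross-shaped proteins of an alpha, a beta and a gamma chain that form the sheet of basement membranes, the layer on which mesothelial cells rest. Integrins that contain ITGA3, ITGA6 or ITGA7 are laminin receptors, those with ITGA1, ITGA2, ITGA10 or ITGA11 bind collagens, and those with ITGA5 or ITGAV bind fibronectin, vitronectin and other proteins that carry an RGD motif.

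LAMA3 and LAMB3 are chains of laminin-332, which epithelia lay down beneath migrating and anchored cells. Their upstream sequence is shown because, of the members with a promoter entry, only these 2 held an AP-1 motif there. AP-1 is the family of FOS and JUN factors, and the motif searched was TGANTCA on both strands in the 250 bases before each start in RefSeq (GRCh38.p14). Capitals mark the motif.
LAMA3, chr18:23872770-23873019, plus strand: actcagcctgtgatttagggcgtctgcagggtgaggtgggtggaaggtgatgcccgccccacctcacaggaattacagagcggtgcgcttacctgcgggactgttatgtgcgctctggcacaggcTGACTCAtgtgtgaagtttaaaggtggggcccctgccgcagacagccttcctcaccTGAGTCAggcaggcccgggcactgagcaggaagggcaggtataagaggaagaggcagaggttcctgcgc
LAMB3, chr1:209651375-209651624, minus strand: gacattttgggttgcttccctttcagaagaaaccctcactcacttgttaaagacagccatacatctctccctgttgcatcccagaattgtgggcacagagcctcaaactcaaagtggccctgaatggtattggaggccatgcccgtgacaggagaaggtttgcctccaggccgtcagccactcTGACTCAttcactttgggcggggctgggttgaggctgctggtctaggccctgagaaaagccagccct
The LAMA3 sequence held 2 matches and the LAMB3 sequence 1, while the other 2 starts of LAMB3 listed in RefSeq held none. Both intervals shown lie inside the annotated genes (LAMA3 chr18:23689453-23956222, LAMB3 chr1:209614870-209652425). They therefore precede internal starts and not the outermost 5' ends. Of the 37 members, 26 matched a RefSeq entry, with 33 entries in all. A member counted as holding a motif when any of its entries did, whereas the shares of all promoters are per entry, so the units differ. The AP-1 motif was present in 2 of these 26 members and in 6.57% of all 35116 promoter entries. The Sp1 motif GGGCGG was found in 14 of the 26 members (42.6% of all entries), the TEAD motif GGAATG in 4 (11.9%) and the E2F motif TTTGGCGC in 0 (0.55%). These matches are descriptions of the sequence, and no binding was measured here.

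Expression was given as CP20M, counts of a gene scaled to 20M per library, deposited as whole numbers. The gaps between low values gave an estimated depth of 12770000 to 19930000 reads for 23 libraries, with a median of 16390000. The other 10 were at least as deep as the scaled total, so 1 read was worth at most 1.57 CP20M, and values under 4.70 CP20M stand for 3 reads or fewer in the shallowest library. Of 10 mesothelial markers, 10 reached 100 CP20M in at least 1 library. Their summed level was 6347 to 54480 CP20M with DMSO, 11370 to 54833 with palbociclib and 10283 to 49407 after washout. With DMSO, the keratin genes KRT18 or KRT19 had the highest mean of the 10 in every line, so the sums mainly reflect them. The markers were not shared by all lines. In DMSO-treated H28, MSLN, CALB2, PDPN and BNC1 averaged 4.33, 0.67, 1.33 and 3.67 CP20M. There KRT18 and KRT19 averaged 1939 and 4606, and WT1, UPK1B, LRRN4 and UPK3B 203, 485, 279 and 85.7. WT1 was at 0 in DMSO-treated MeT-5A. Among 4 leukocyte genes, CD68 ran from 123 to 1844 CP20M and CD14 reached 1130, whereas PTPRC reached at most 42 and CD3E was at 0 in every library. CD14 averaged 223 CP20M in H2452 with DMSO and 588 with palbociclib. The summed level of the 4 genes was 127 to 1595 CP20M with DMSO, 159 to 2371 with palbociclib and 327 to 2106 after washout. With DMSO and with palbociclib, sums were 3 to 150 and 12 to 68 for 3 endothelial genes, 60 to 1974 and 43 to 2534 for 3 epithelial genes, and 190 to 11304 and 127 to 9378 for 4 fibroblast and muscle genes. The part of these other cell types' genes in the results was not tested.

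Of the 37 members, 30 reached 100 CP20M in at least 1 library and were tested, 20 integrins and 10 laminins. The other 7 stayed low throughout. ITGA8 reached 1 CP20M, ITGAL 12, LAMB4 30, ITGA9 37, ITGAD 60, ITGA10 80 and ITGAM 82. ITGAL, ITGAM and ITGAD pair with ITGB2 on leukocytes. ITGA8, a nephronectin receptor, was at 0 in 31 of the 33 libraries.

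Before treatment, the lines carried different sets of chains. All 30 tested members differed among the 6 lines in the 14 DMSO libraries (limma F test, false discovery rate (FDR) under 0.05), as did 95.6% of the 17803 genes tested, so the share among members was close to that of all genes. To set genes against each other, levels were divided by the length of their annotated exons. This length joins the exons of all annotated transcripts and is not that of 1 mRNA, so shares and ranks depend on it. The divisor was 14.561 kb for ITGB1 and 6.829 kb for ITGB3, and 18.592 kb for LAMB1 and 6.865 kb for LAMB2. On this scale the laminin receptor chain ITGA3 had the highest mean share of the alpha chains in 5 lines, with 60.5% ± 3.14 (SD, n = 2) of the alpha chain total in H2052, 60.4% ± 1.75 (n = 3) in H2452, 69.3% ± 10.7 (n = 3) in H28, 43.0% ± 9.99 (n = 3) in MSTO-211H and 39.2% in the 1 MeT-5A library. In MSTO-211H its lead rested on 1 of 3 libraries, since ITGA3 stood at 3148, 1279.6 and 1885 CP20M per kb and ITGA6 at 1191, 1307 and 2047. In MPP89 the fibronectin receptor chain ITGA5 led instead with 1853 CP20M per kb, against 1335 for ITGA3. ITGA6, the partner of ITGB4 in hemidesmosomes, was high in MSTO-211H (1515 ± 464 CP20M per kb, n = 3) and H2052 (1346 ± 336, n = 2). These 2 lines overlapped each other, and the next line, H2452, stood at 184 ± 57.5 (n = 3).

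Among beta chains, H28 stood apart. ITGB1, the shared partner of most alpha chains, made up 50.8% to 75.5% of the beta chain total per kb in the other 5 lines on average, but 22.5% ± 2.38 (SD, n = 3) in H28, where ITGB3, a vitronectin receptor chain, took 60.8% ± 9.43. Before division by length, ITGB1 was at 13122, 12613 and 17332 CP20M in the 3 DMSO libraries of H28. The level of ITGB3 was 17702, 11889 and 27270 CP20M in the same libraries. It was 1308 and 461 in MPP89, 558 in MeT-5A, 470, 308 and 315 in H2452 and 192 and 156 in H2052, and only 10, 2 and 5 in MSTO-211H. H28 and MSTO-211H were thus separate from every other line at the top and bottom, whereas MPP89 and MeT-5A overlapped. ITGAV, the alpha partner of ITGB3, followed the same top with 793 ± 178 CP20M per kb in H28 (n = 3), above 322 ± 42.6 in H2452 (n = 3). Its own bottom was MSTO-211H too, with 101 ± 26.8 (n = 3). ITGB5, a further ITGAV partner, was at 71, 15 and 75 CP20M in MSTO-211H and at 974 to 3486 CP20M in every DMSO library of the other lines.

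One limit applies to ITGB3 (ENSG00000259207, chr17:47253827-47313743, plus strand). A second gene in the matrix, AC068234.1, lies on the same strand and shares 2266 bases, 33.2% of the ITGB3 exon length in GENCODE 44. In the 26 libraries with ITGB3 at 100 CP20M or more, AC068234.1 stood at 0.651 to 0.782 times the ITGB3 value, with a median of 0.675. Its level therefore ran with that of ITGB3 in all of them, and how the reads were divided between the genes was not tested. The absolute level of ITGB3 is uncertain for this reason.

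LAMA5, a chain common in adult basement membranes, led the laminin alpha chains per kb in 4 of the 6 lines. It formed 95.2% ± 0.386 (SD, n = 3) of their total in H28, 82.5% in the 1 MeT-5A library, a mean of 78.3% in MPP89 (76.5% and 80.0% in its 2 libraries) and 52.6% ± 1.14 (n = 2) in H2052. The same 4 lines had LAMB2 as the leading beta chain per kb, with mean shares of 62.4% to 73.7%. That rank depends on the division by length. Before it, mean LAMB1 was above mean LAMB2 in H28 (9035 against 6095 CP20M), MPP89 (11941 against 11522.5) and MeT-5A (6966 against 6659, 1 library). In H2052 it was below (1682 against 7390.5). LAMA4, a chain of mesenchymal and endothelial laminins, was at 0, 3 and 15 CP20M in H28 with DMSO. It was at 7715, 16145 and 7313 in H2452 and at 11730, 9620 and 8439 in MSTO-211H. It was the leading alpha chain in both of these lines. Per kb, LAMB3 was the leading beta chain only in H2452, with 6388, 3073 and 6377 CP20M. Before division by length, LAMB1 had the higher mean there (7870 against 5279 CP20M). LAMB3 was low in H28 (43, 49 and 97) and MSTO-211H (22, 25 and 30).

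**Figure D1:**
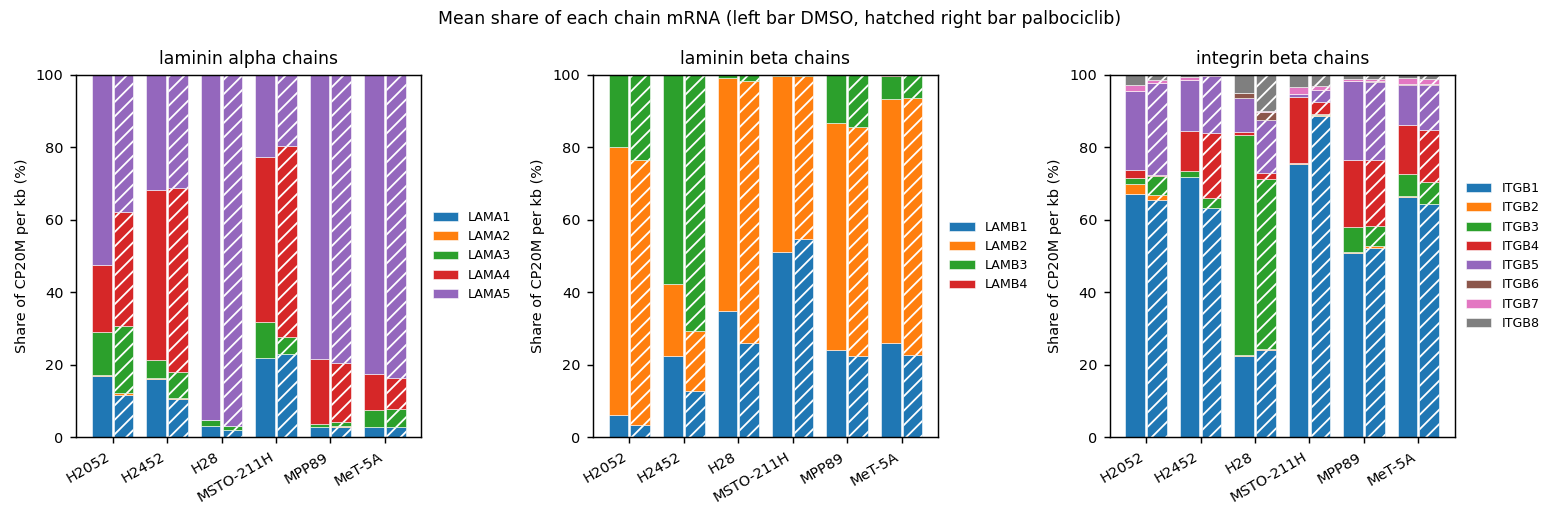
Mean share (percent of CP20M per kb) of each chain's mRNA among the laminin alpha, laminin beta and integrin beta chains, by line, with DMSO in the plain left bars and palbociclib in the hatched right bars. On this scale, which depends on annotated exon length, the largest share is that of ITGB3 among integrin beta chains in H28. Likewise LAMB3 is largest among laminin beta chains in H2452 and LAMA5 among laminin alpha chains in H28.

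The main comparison asked how palbociclib moved these genes in the sensitive lines. Over the 11 pairs, 5 of 30 members rose, ITGB5, ITGB3, LAMB3, ITGA5 and LAMA2, and 2 fell, ITGAE and ITGA11. A call required limma with the pair as a block, FDR under 0.05 over all 17803 genes and a change of more than 1.5-fold. By the same rule 5.58% of all genes rose and 9.37% fell. The median log2 fold change was 0.09 over the 30 members, −0.02 over the 20 integrins, 0.17 over the 10 laminins and −0.11 over all genes. Of the 10 laminins 2 rose and 0 fell, and of the 20 integrins 3 rose and 2 fell. RNA came from whole cultures, so fewer expressing cells and less RNA per cell cannot be told apart. Scaling by the median of ratios instead of library totals moved the median of all genes to 0.06 and the calls over all genes from 994 higher and 1669 lower to 1759 higher and 920 lower. Among members it gave 8 higher, the same 5 with ITGB1, ITGA3 and LAMB2, and 0 lower. With the 4 line means as units, 0 members were called higher and only ITGAE lower. The share of all genes called in that setting was not computed, so these counts are not a result particular to the members.

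**Figure D2:**
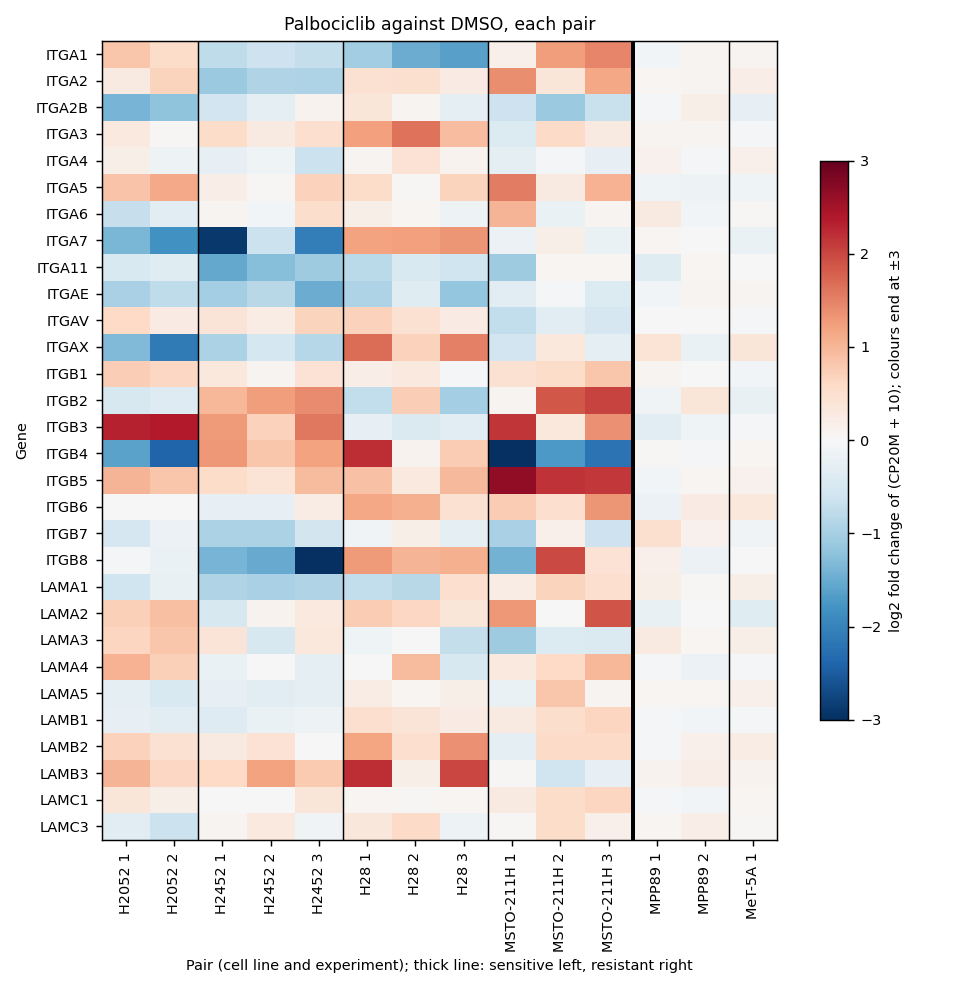
Log2 fold change of (CP20M + 10), palbociclib against DMSO, for the 30 tested members (rows) in each of the 14 pairs (columns, line and experiment number), red for higher and blue for lower, with colours ending at 3 in either direction. ITGB5 is red in all 11 sensitive pairs, ITGB4, ITGA7, ITGAX and ITGB8 are red in some lines and blue in others, and the 3 resistant pairs on the right are pale throughout.

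ITGB5 (ENSG00000082781, chr3:124761948-124901418, minus strand) showed the largest increase among the called members. MSTO-211H went from 71, 15 and 75 CP20M with DMSO to 505, 103 and 359 with palbociclib, and H2052 from 2288 and 2123 to 4656 and 3811. H2452 went from 3486, 3007 and 2586 to 5129, 4030 and 4977, and H28 from 2696, 2440 and 2694 to 4973, 2972 and 5337. It was higher in 11 of 11 pairs, and the 2 treatments did not overlap within any sensitive line. The log2 fold change was 1.17 ± 0.21 (SE, 11 pairs, adjusted p = 0.000475). In MSTO-211H, the line with the least ITGB5, it was 2.32 ± 0.19 (adjusted p = 0.0349).

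ITGB3 rose in H2052 and H2452, where it was modest, and was not called in H28, where it was abundant. With palbociclib it reached 985 and 850 CP20M in H2052 and 1155, 503 and 964 in H2452, each above every DMSO value of the line. In H28 the palbociclib values were 14969, 8745 and 21758, lower than the DMSO value of the same experiment in 3 of 3 pairs. In MSTO-211H they were 78, 5 and 29, still a few reads in 1 of the libraries. The pooled log2 fold change was 1.00 ± 0.28 (limma, adjusted p = 0.00915). It was made up of 2.34 ± 0.11 in H2052 (adjusted p = 0.032), 1.18 ± 0.20 in H2452 (adjusted p = 0.0253) and means of −0.34 in H28 and 1.28 in MSTO-211H. The MSTO-211H mean starts from 10, 2 and 5 CP20M with DMSO, which stand for few reads. The response differed among the lines (F test, adjusted p = 0.00356). The overlapping gene AC068234.1 moved alongside, by a mean log2 fold change of 2.17 in H2052, 1.14 in H2452 and −0.32 in H28. Without H2052, H2452 or MSTO-211H, or within pairs of 9 or of 10 days alone, ITGB3 was no longer called.

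ITGA5 (ENSG00000161638, chr12:54395261-54419266, minus strand), which with ITGB1 forms the main fibronectin receptor, rose in 11 of 11 sensitive pairs. In H2052 it went from 4288 and 4010 CP20M to 7824 and 8901, and in MSTO-211H from 3608, 1674 and 2478 to 10500, 2030 and 5113. In H2452 it went from 8134, 6417 and 7054 to 9380, 6570 and 11402, and in H28 from 1174, 889 and 1085 to 1719, 910 and 1720. The treatments were separate in H2052 only, and overlapped in the other 3 lines. The log2 fold change was 0.64 ± 0.13 (adjusted p = 0.00133), and it was no longer past the threshold without H2052, without MSTO-211H or without pair 1 of MSTO-211H. The call was also lost in the 7 pairs of 9 days alone (0.50, adjusted p = 0.0576), without the block and with line means. Its partner ITGB1 changed by 0.41 ± 0.08 (adjusted p = 0.0014, higher in 10 of 11 pairs), which is under the 1.5-fold limit. ITGA3 changed by 0.53 ± 0.15 (adjusted p = 0.0111), also under the limit, and was called in H28 alone, where it went from 29680, 18921 and 40745 CP20M to 69161, 58071 and 77014 (1.25 ± 0.19, adjusted p = 0.0325). The alpha chains ITGAV, ITGA6 and ITGA4 were called in no line, with pooled log2 fold changes of 0.18, 0.04 and −0.09. The pooled ITGAV value joins lines that moved in opposite directions (F test, adjusted p = 0.00339). Its line means were 0.42 in H2052, 0.42 in H2452 and 0.46 in H28, but −0.52 in MSTO-211H.

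**Figure D3:**
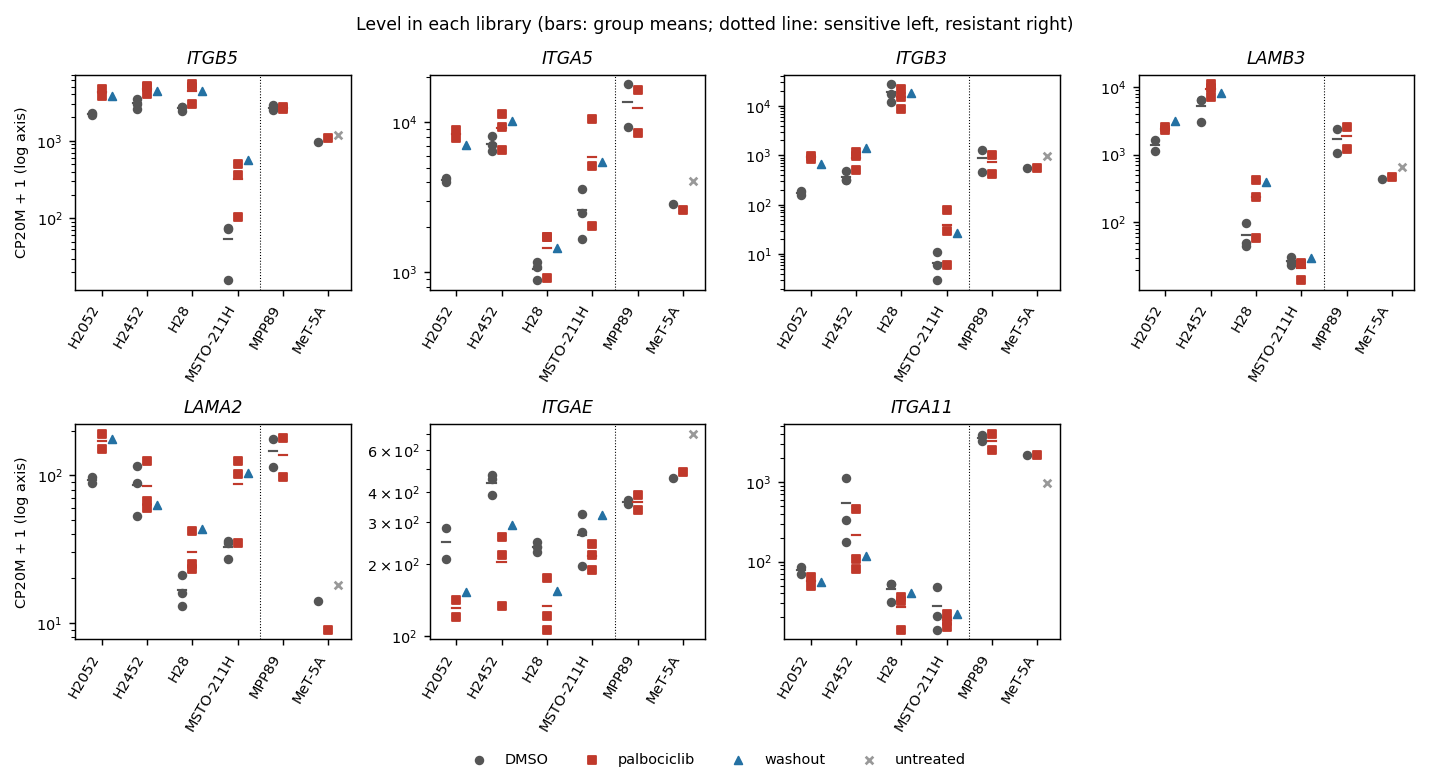
Level of the 7 called members in every library (CP20M + 1, log axis), by line and treatment, with bars at the means of groups of at least 2 libraries. ITGB5 and ITGA5 remain high in the washout libraries of the sensitive lines left of the dotted line. The resistant lines to its right hardly differ between DMSO and palbociclib. The untreated MeT-5A library differs more for some members, as with ITGA11 at 960 CP20M against 2192 with DMSO.

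Of the laminin chains, LAMB3 (ENSG00000196878, chr1:209614870-209652425, minus strand) went from 1127 and 1622 CP20M to 2292 and 2518 in H2052 and from 6388, 3073 and 6377 to 9597, 7109 and 10958 in H2452, without overlap in either line. In H28 it went from 43, 49 and 97 to 235, 57 and 419, and in MSTO-211H it was 22, 25 and 30 with DMSO and 23, 13 and 24 with palbociclib. The log2 fold change was 0.71 ± 0.23 (higher in 9 of 11 pairs, adjusted p = 0.0207), and it differed among lines (F test, adjusted p = 0.0413). Leaving out H2052, H2452 or H28, or pair 1 or 3 of H28, ended the pooled call, as did taking the pairs of 9 or of 10 days alone, and the F test call was lost under 13 alternatives. LAMA3, the laminin-332 alpha chain, was called in H2052 alone (0.74 ± 0.09, adjusted p = 0.039), where it went from 1666 and 1882 to 2611 and 3344 CP20M, and its pooled log2 fold change was −0.10 ± 0.16 (adjusted p = 0.618). In MSTO-211H it was lower in 3 of 3 pairs, at 4408, 1835 and 2138 with DMSO and 2107, 1377 and 1571 with palbociclib.

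Of the other laminin chains, LAMA2 (ENSG00000196569, chr6:128883138-129516566, plus strand), the alpha chain of muscle laminin, rose by 0.59 ± 0.18 (adjusted p = 0.016) at low levels. H2052 went from 87 and 96 CP20M to 149 and 189, and H28 from 20, 12 and 15 to 41, 24 and 22. MSTO-211H had 35, 34 and 26 against 101, 34 and 123, and H2452 had 87, 114 and 52 against 59, 124 and 66. The treatments were separate in H2052 and H28 and overlapped in the other 2 lines. It was called in no single line, and its call was lost under 14 of 25 alternative settings. LAMB2 changed by 0.53 ± 0.13 (higher in 10 of 11 pairs, adjusted p = 0.0037), just under the fold limit, and was called in H28, where 5719, 5992 and 6575 CP20M became 13078, 8477 and 16991. LAMC1 was higher in 11 of 11 pairs by a small amount (0.23 ± 0.07, adjusted p = 0.016). LAMA4 was called in H2052, where it went from 1661 and 3012 to 3437 and 4938 CP20M, and LAMA1 fell in H2452 from 5462, 1751 and 5516 to 2897, 883 and 2970 (−0.93 ± 0.05, adjusted p = 0.0123). LAMA5, LAMB1 and LAMC3 were called in no line, with pooled log2 fold changes of −0.04, 0.11 and 0.07. LAMB1 was lower in every pair of H2052 and H2452 and higher in every pair of H28 and MSTO-211H (F test, adjusted p = 0.00253).

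The 2 members that fell in the pooled lines are both alpha chains. ITGAE (ENSG00000083457, chr17:3714628-3801188, minus strand), the E-cadherin receptor chain of T cells in epithelia, was lower in 11 of 11 pairs. H2052 went from 283 and 209 CP20M to 140 and 119, and H2452 from 452, 471 and 388 to 217, 259 and 132. H28 went from 235, 224 and 247 to 120, 173 and 105, and MSTO-211H from 270, 195 and 323 to 216, 187 and 241. Only in MSTO-211H did the treatments overlap. The log2 fold change was −0.75 ± 0.12 (adjusted p = 0.000288), and under median-of-ratios scaling it was −0.57, just under the fold limit. HASPIN, a mitotic kinase gene, lies within ITGAE on the other strand and covers 6.47% of its exon length. In the 11 pairs HASPIN stood at 156 to 458 CP20M with DMSO and 37 to 171 with palbociclib, lower in 11 of 11 pairs (−1.73 ± 0.24, adjusted p = 7.99e-05). The strand setting of the counting is not given, so reads of the 2 genes may be mixed, and the part of HASPIN in the fall of ITGAE was not tested.

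ITGA11 (ENSG00000137809, chr15:68296532-68432163, minus strand), a collagen receptor chain of fibroblasts, was highest, among DMSO libraries, in the resistant lines MPP89 (3271 and 3853 CP20M) and MeT-5A (2192), while the untreated MeT-5A library had 960. H2452 went from 331, 1118 and 177 with DMSO to 108, 457 and 80 with palbociclib, and H2052 from 70 and 85 to 48 and 64. H28 went from 30, 52 and 52 to 13, 35 and 31, while MSTO-211H had 47, 13 and 20 against 17, 14 and 21. The treatments were separate in H2052 only. The log2 fold change was −0.68 ± 0.15 (lower in 9 of 11 pairs, adjusted p = 0.00217), with calls in H2452 (−1.29 ± 0.13, adjusted p = 0.0148) and H28 (−0.62 ± 0.12, adjusted p = 0.0416). The call was lost under 6 of 25 alternative settings, which were leaving out H2452 (−0.46), a pseudocount of 50 (−0.48), the pairs of 10 days alone (−0.49), median-of-ratios scaling (−0.52), line means and no block.

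Considered line by line, 12 members were called in H2052, 7 higher and 5 lower, beside 4.67% and 13.0% of all genes. In H2452 5 were higher and 8 lower, beside 6.04% and 10.8% of all genes. In H28 the counts were 6 and 2, beside 5.89% and 7.34%, and in MSTO-211H 1 and 2, beside 5.90% and 7.94%. Of the 30 members, 21 were called in at least 1 line and 9 in none, beside 39.2% of all genes called in at least 1 line. ITGB5 was called in 3 lines in the same direction (5.48% of all genes), while 5 members, ITGA1, ITGA7, ITGAX, ITGB4 and ITGB8, were called higher in at least 1 line and lower in another (1.12% of all genes). These line fits rest on 2 or 3 pairs. In H28 and MSTO-211H 0 members were called once any 1 pair was left out, and in H2452 0 to 2 higher and 0 to 4 lower. The shares of all genes with a pair left out were not computed. In H2052, limma without the trend called 0 members and 0 genes in all, and without the filter on low values 1 member higher and 0 lower.

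Whether lines differed in their response was tested directly. The F test over the 4 sensitive lines passed for 17 of 30 members, 13 integrins and 4 laminins, beside 37.1% of all genes. ITGB4, the beta chain of the hemidesmosome receptor for laminin, had the widest contrast. It fell in MSTO-211H from 697, 1732 and 1550 CP20M to 62, 522 and 328 (−2.40 ± 0.35, adjusted p = 0.0362) and in H2052 from 189 and 270 to 55 and 43 (−2.01 ± 0.27, adjusted p = 0.0401). It rose in H2452 from 2634, 3638 and 1564 to 6479, 6537 and 3647 (1.12 ± 0.11, adjusted p = 0.0146). In H28 it was higher in 3 of 3 pairs, at 116, 269 and 312 against 576, 292 and 533, without being called there. In MSTO-211H and H2052 every palbociclib value lay below every DMSO value, and in H2452 every palbociclib value lay above every DMSO value. The F test gave an adjusted p of 0.000862, while its partner ITGA6 did not pass (adjusted p = 0.166).

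ITGA7, a laminin receptor chain of muscle, fell in H2052 from 687 and 1143 CP20M to 261 and 317 (−1.59 ± 0.16, adjusted p = 0.038) and rose in H28 from 124, 127 and 86 to 300, 310 and 232 (1.26 ± 0.11, adjusted p = 0.0266). In H2452 it was lower in 3 of 3 pairs, at 811, 269 and 578 against 101, 168 and 129, and in MSTO-211H it was 2012, 1109 and 1119 against 1777, 1258 and 973. The treatments were separate in the first 3 of these lines and overlapped in MSTO-211H (F test, adjusted p = 0.00137).

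ITGB8, which with ITGAV activates latent TGF-beta, fell in H2452 from 186, 576 and 441 CP20M to 64, 196 and 45 (−1.98 ± 0.39, adjusted p = 0.0329) and rose in H28 from 2698, 4994 and 1060 to 6538, 10170 and 2222 (1.12 ± 0.08, adjusted p = 0.0266). The values of H28 overlapped between treatments, while 3 of 3 pairs moved upward. In MSTO-211H, 1176, 259 and 400 became 432, 1047 and 545, with no common direction. ITGB6, which also pairs with ITGAV and activates TGF-beta, was above 100 CP20M only in H28, where 227, 442 and 147 became 522, 941 and 204 (0.90 ± 0.18, adjusted p = 0.0452).

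Of the collagen receptor chains, ITGA1 rose in H2052 from 356 and 459 CP20M to 640 and 675 (0.69 ± 0.13, adjusted p = 0.0495) and fell in H2452 from 607, 992 and 471 to 354, 642 and 285 (−0.70 ± 0.07, adjusted p = 0.0142). It also fell in H28, from 374, 714 and 303 to 175, 248 and 92 (−1.39 ± 0.15, adjusted p = 0.0266), and stood at 59, 10 and 31 against 67, 38 and 103 in MSTO-211H. The treatments were separate in H2052 and H28. ITGA2 fell in H2452 from 466, 1050 and 536 to 211, 557 and 279 (−0.98 ± 0.08, adjusted p = 0.013) and was higher in every pair of the other 3 sensitive lines without being called there. The F test gave adjusted p = 0.000941 for ITGA1 and 0.000862 for ITGA2.

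Chains best known from blood cells were measured too. ITGAX fell in H2052 from 194 and 350 CP20M to 71 and 73 (−1.72 ± 0.27, adjusted p = 0.0429) and in H2452 from 1349, 322 and 1090 to 689, 221 and 595 (−0.78 ± 0.11, adjusted p = 0.02). It rose in H28 from 50, 43 and 49 to 182, 76 and 157 (1.29 ± 0.24, adjusted p = 0.0407). ITGB2 rose in H2452 from 11, 3 and 8 CP20M to 32, 21 and 38 (1.22 ± 0.11 on the log2 scale with 10 added, adjusted p = 0.014), and was highest in H2052 at 300 and 321 with DMSO. Those H2452 DMSO values stand for few reads, and ITGB2 reached 100 CP20M only in H2052 and H28. ITGA2B, the platelet fibrinogen receptor chain, fell in H2052 from 27 and 34 to 4 and 9 (−1.31, adjusted p = 0.0372). In MSTO-211H it fell from 13, 18 and 9 to 5, 3 and 2 (−0.80, adjusted p = 0.0399). These palbociclib values lay near the 4.70 CP20M that 3 reads are worth in the shallowest library, so both calls rest on few reads. ITGA2B reached the filter of 100 CP20M only in MeT-5A, at 271 untreated and 119 with DMSO. Both calls are included in the counts of members called lower in these lines. ITGB7 fell in H2452 from 121, 105 and 52 to 58, 50 and 32 (−0.82 ± 0.13, adjusted p = 0.0248), and ZNF740 covers 42.3% of its exon length on the other strand. ZNF740 changed in H2452 by −0.46 ± 0.09 (adjusted p = 0.0335, under the fold limit), and its part in the ITGB7 values was not tested.

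**Figure D4:**
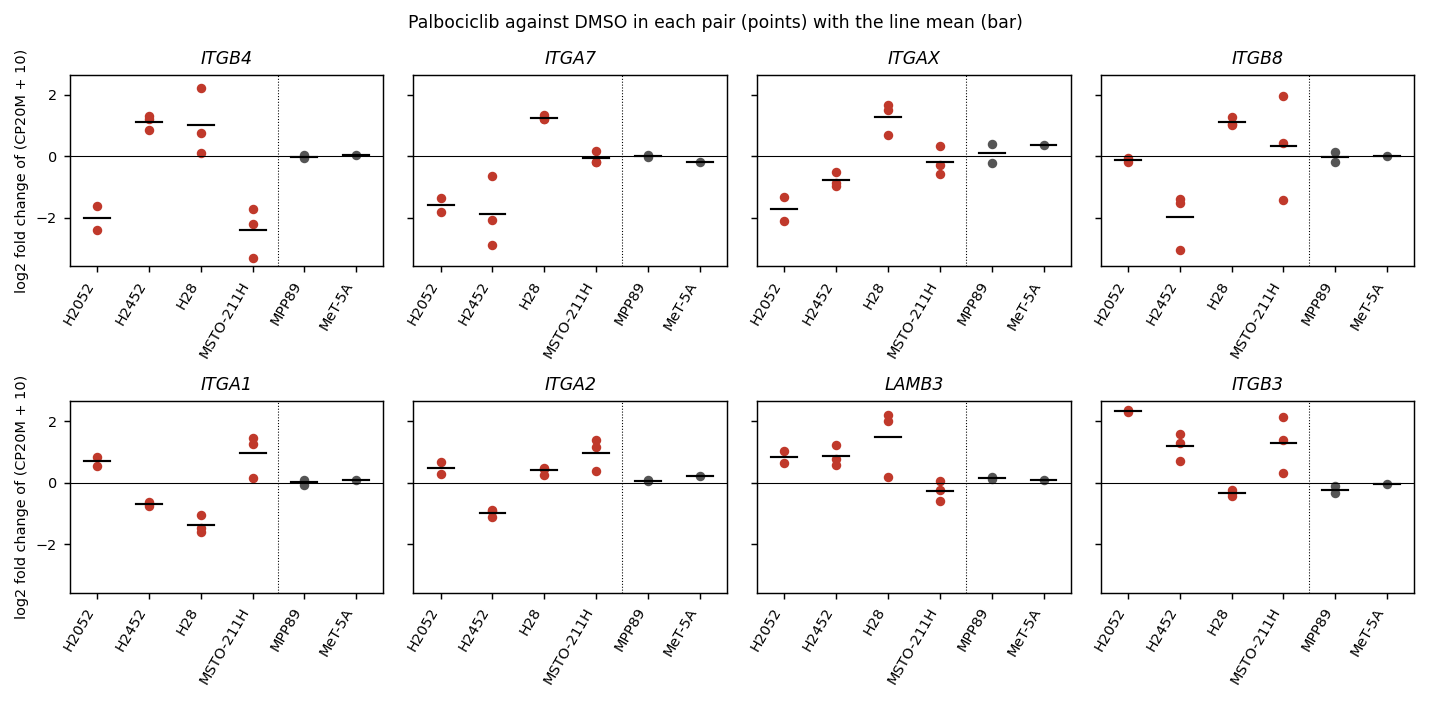
Log2 fold change of (CP20M + 10) of 8 members in each pair (points) with the mean of each line (bars), sensitive lines in red left of the dotted line and resistant lines in grey. ITGB4 is below 0 in H2052 and MSTO-211H and above 0 in H2452 and H28, ITGA7 and ITGAX are above 0 in H28 and below 0 in H2052 and H2452, and all 8 stay near 0 in MPP89 and MeT-5A.

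Genes that act with integrins or laminins were taken from 2 further lists. Over the 11 pairs 5.58% of all genes rose and 9.37% fell, with a median log2 fold change of −0.11. Of 24 integrin adhesion adaptors, which tie the receptors to actin and signalling, 22 were tested. Beside those shares, 2 adaptors rose and 2 fell, with a median log2 fold change of −0.03. BCAR1, a docking protein of focal adhesions, rose by 0.69 ± 0.07 (adjusted p = 1.15e-05) and FBLIM1, a filamin-binding partner of kindlin, by 0.82 ± 0.17 (adjusted p = 0.0016). TNS2, a tensin, fell by 0.92 on the log2 scale (SE 0.10, adjusted p = 1.78e-05) and FERMT3, the kindlin of blood cells, by 0.61 (SE 0.20, adjusted p = 0.0194). Of 12 basement membrane partners and non-integrin laminin receptors, all tested, 4 rose and 2 fell, with a median of 0.32, beside the same shares of all genes. SDC4, a syndecan of focal adhesions, rose by 0.91 ± 0.14 (adjusted p = 0.000223) and NTN4, a netrin that binds laminin gamma chains, by 0.82 ± 0.22 (adjusted p = 0.00729). SDC1 fell by 0.85 (SE 0.29, adjusted p = 0.0272) and NID1, the nidogen that links laminin to collagen IV, by 0.76 (SE 0.13, adjusted p = 0.000415).

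In the resistant lines the members moved little. Over the 3 pairs of MPP89 and MeT-5A, 0 of 30 members were called, as were 0% of all genes, while 4 members and 1258 genes had an unadjusted limma p under 0.05. MPP89 on its own also gave 0 calls, with 3 members and 918 genes under that unadjusted limit, and MeT-5A had 1 pair and no test. In each resistant pair 0 of 30 members passed 1.5-fold, against 10 to 18 of 30 in the sensitive pairs. For all genes these shares were 1.01% to 1.25% and 16.3% to 35%. ITGB5 stood at 2859 and 2486 CP20M with DMSO and 2706 and 2580 with palbociclib in MPP89, and at 974 and 1069 in MeT-5A.

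The difference between the classes was tested over all 14 pairs. It passed for 0 of 30 members at FDR under 0.05, beside 1.56% of genes higher and 7.81% lower, and 6 members had an unadjusted limma p under 0.05. The nearest were ITGAE (−0.78 ± 0.25, adjusted p = 0.0565), ITGA5 (0.78 ± 0.26, adjusted p = 0.0704) and ITGB5 (1.14 ± 0.41, adjusted p = 0.0921). The sensitive and resistant classes are therefore not shown to differ for any single member.

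Removing the drug for 48 h asked whether the members returned. Against palbociclib, 0 of 30 members were called after washout over the 4 lines, beside 1.40% of all genes higher and 0% lower, and 2 members had an unadjusted limma p under 0.05. Against DMSO of the same experiment, 2 of 30 were still higher and 0 lower, beside 2.81% and 2.95% of all genes. These were ITGA5 (0.73 ± 0.12, adjusted p = 0.00897) and ITGB5 (1.27 ± 0.29, adjusted p = 0.0258). Both comparisons use the same 4 washout libraries, and leaving out H2052 ended both calls. ITGB5 was also lost without H2452 or H28, and ITGA5 without MSTO-211H.

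With DMSO, then palbociclib, then washout, ITGB5 was at 75, 359 and 570 CP20M in MSTO-211H, 2123, 3811 and 3804 in H2052, 2586, 4977 and 4369 in H2452 and 2694, 5337 and 4423 in H28. In the same order, ITGA5 was at 2478, 5113 and 5457 in MSTO-211H, 4010, 8901 and 7108 in H2052, 7054, 11402 and 10300 in H2452 and 1085, 1720 and 1449 in H28. In 4 of 4 lines the washout library was above the DMSO library for both of these genes. ITGAE was at 323, 241 and 319 in MSTO-211H, 209, 119 and 152 in H2052, 388, 132 and 291 in H2452 and 247, 105 and 153 in H28. After washout ITGAE lay above palbociclib and below DMSO in 4 of 4 lines. Its log2 difference of 0.58 ± 0.18 from palbociclib did not pass in the limma fit (adjusted p = 0.183). ITGA1 was also above palbociclib in 4 of 4 lines, by a mean log2 difference of 0.67. LAMA2 and ITGB6, both low in most lines, were above DMSO in 4 of 4 lines, by means of 0.93 and 0.53. ITGB3 was above DMSO in 3 of 4 lines, by a mean of 1.22. None of these differences was called. LAMC1, LAMB2, ITGB1 and LAMA4 were below palbociclib in 4 of 4 lines, by mean log2 differences of −0.29, −0.30, −0.26 and −0.37, none of them called. The LAMA4 value was −0.21 without H28, where it went from 8 to 0 CP20M.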

How the data were processed

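Per the submitters' processing notes, the authors trimmed reads with Trimmomatic 0.36, aligned them to GRCh38 with STAR 2.5.3 and counted them per gene with HTSeq 0.9.1. DESeq2 is also named there, without a version. The strand setting of the counting is not given in the sources used here. The authors deposited CP20M, counts per 20M reads rounded to whole numbers, treated here as a score and not as raw counts. Column totals were 20007662 to 20021400.

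Members and lists were chosen with earlier results of these data known, and 1 gene that the rule matches and 1 cell type marker are not reported here. Values were taken as log2(CP20M + 10), and genes at 100 CP20M or more in at least 1 of 33 libraries were kept (17803). Fold changes are on this scale, which understates changes of low genes. The pair (for washout, the line) entered as a block in limma 3.58.1 under R 4.3.3, with a trended eBayes, and p-values were adjusted by Benjamini-Hochberg over all genes tested. Tests were two-sided. A call needed FDR under 0.05 and a fold over 1.5, or FDR alone for the F tests and the difference between classes. The fits per line used that line's pairs only. Every other member was accounted for, with values per library for those called over the sensitive pairs, and of the 2 further lists the 4 called genes with the largest change were named. Same-numbered DMSO and palbociclib libraries deviated together in every line with at least 2 pairs (correlation 0.18 to 0.78 of deviations from group means), so the numbers were taken as pairs. Both pairs of H2052 share 1 value by construction, as do both pairs of MPP89. MeT-5A has 1 pair and no value, and other pairings were not compared. Nothing in the labels ties libraries to separate cultures, so the p-values measure the spread between these experiments. Replicates shared at most 4.33% identical values, so none was a repeated deposit. Levels per kb used exon unions of GENCODE 44. Tables and figures used pandas 2.3.3 and matplotlib 3.10.9, and the fits were tested on simulated data. Alternatives were no block, pseudocounts of 1 and 50, 2 other filters, median-of-ratios scaling, eBayes without trend, leaving out pairs or lines and line means. Splitting by 9 or 10 days was added after seeing the data.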

Additional observations from a re-analysis of the deposited data

Results flagged for a closer look

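The 17 members below were singled out because their responses to palbociclib differed among the 4 sensitive lines in the limma F test, each p adjusted by Benjamini-Hochberg over all 17803 genes. By the same test 37.1% of all genes differed. Among beta chains the adjusted p was 0.000812 for ITGB5, 0.000862 for ITGB4, 0.00356 for ITGB3, 0.0192 for ITGB8, 0.0234 for ITGB6 and 0.0334 for ITGB2. Among alpha chains it was 0.00082 for ITGAX, 0.000862 for ITGA2, 0.000941 for ITGA1, 0.00137 for ITGA7, 0.00339 for ITGAV, 0.0109 for ITGA2B and 0.0204 for ITGA3. Among laminins it was 0.00253 for LAMB1, 0.0182 for LAMA1, 0.0183 for LAMA3 and 0.0413 for LAMB3. ITGB5 differed in size, with line means of the log2 fold change that were positive in all 4 lines, while ITGB4 and ITGB8 were positive in 2 lines and negative in 2. ITGA2B stayed at 34 CP20M or below in the 4 sensitive lines, so its F test rests on low values. The F tests of ITGB2 and ITGB6 rest in part on low values too. ITGB2 stayed at 39 CP20M or below in H2452 and MSTO-211H, and ITGB6 at 28 or below in H2052, H2452 and MSTO-211H. Causes were not tested.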

How the results depend on the processing

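Line fits rest on 2 or 3 pairs, washout on 1 library per line, and read depth is an estimate. No called member changed direction under any alternative that was run. Single members were followed where they were called in the main fit, and over the sensitive lines also where only the fold limit was missed. Among their recomputed values, 1312 kept their side of the threshold, 240 lost the call and 14 gained it. Only members that missed the fold limit could gain, so gains by other members are not among the 14. The 1312 include the F test of DMSO levels, which all 30 members and 95.6% of all genes passed. For H2052 and MPP89 alone, leaving out a pair left no residual degrees of freedom and was not run. Except where the construction shows it (fewer pairs), the cause of each change was not tested.

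Without the replicate block, that is without the pairing, the sensitive lines gave 0 members higher and 1 lower (5 and 2 with it), H2052 gave 3 higher, H2452 2 higher and 2 lower, H28 1 higher and 0 lower, and MSTO-211H 1 higher and 1 lower. The F test among lines then gave 5 members instead of 17, and washout against DMSO 0 higher instead of 2. The block changed no other member count by over 1.5 times. Calls over all genes fell too, so these losses are not particular to the members. Over the sensitive lines they went from 994 higher and 1669 lower to 113 and 826 without the block. For washout against DMSO they went from 500 higher and 526 lower to 0 and 0.

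Over the sensitive lines, 1 member was lower with a pseudocount of 50, 0 with median-of-ratios scaling (which gave 8 higher), and with line means 0 were higher and 1 lower. The 9-day pairs gave 1 higher, and the 10-day pairs 2 higher and 1 lower. In H2052 (7 higher, 5 lower), a pseudocount of 1 gave 3 and 1, no filter 1 and 0, eBayes without trend 0 and 0, and median-of-ratios scaling 11 and 2. Over all genes in H2052, 832 higher and 2311 lower became 0 and 0 without trend, and 1621 and 670 with that scaling. In H28, 1 member instead of 2 was lower with a pseudocount of 1 or 50, without the filter and with median-of-ratios scaling. In MSTO-211H (1 higher, 2 lower), 1 was lower with a pseudocount of 50 or without the filter, median-of-ratios scaling gave 2 higher and 1 lower, and filtering within its own libraries gave 5 higher. Over all genes in MSTO-211H, 1051 higher and 1413 lower became 1304 and 628 with that scaling, and 1338 and 1987 with that filter.

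Leaving out 1 pair or line gave 2 to 6 higher and 2 to 5 lower over the sensitive lines, with 2 higher without H2052, 3 higher without pair 1 of H28 and 5 lower without H28. It gave 0 to 2 higher and 0 to 4 lower in H2452, and 0 in either direction in H28 and MSTO-211H. The difference between classes ranged over 0 to 1 higher and 0 to 1 lower, the F test over 12 to 21 members, and washout against DMSO over 0 to 2 higher. Shares of all genes were not computed for leaving out pairs or lines, or for line means. Nor were they computed for the other pseudocounts, for no filter, for the split by days or for the F tests under alternatives.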
